A study of Mus musculus with 42 samples.

Results

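The germinal centre B cell genes described here are Bcl6, Mef2b, S1pr2, Rgs13, Gcsam, Basp1 and Fas. These 7 genes were listed by symbol, not by a measured level, among 47719 Ensembl gene identifiers measured in every library, and all 7 were found. The RNA came from the spleens of untreated mice, divided into B cells, T cells and all cells that were neither (non-BT cells). Each fraction held 3 libraries from old mice homozygous for Psmb8 G201V, 3 from old Psmb8 +/+ mice, 4 from young homozygous mice and 4 from young Psmb8 +/+ mice, which gives 42 libraries in 12 groups. Psmb8 encodes a catalytic subunit of the immunoproteasome, and the study asks which genes are deregulated in the spleen cells of the homozygous (Hom) mice relative to the wild type (WT). The labels do not state age in weeks, strain, sex or the method of cell separation. The 3 libraries of young WT animal 4 carry the genotype Psmb9 +/+ in their labels, and WT in their titles.

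In the spleen, B cells that meet antigen and T cell help form germinal centres, where they divide, mutate their antibody genes and compete for help from follicular helper T cells. Bcl6 is the transcriptional repressor on which the germinal centre programme depends, and Mef2b is a transcription factor upstream of Bcl6. S1pr2 is a receptor for sphingosine 1-phosphate that keeps the cells in the centre of the follicle through G alpha 13. Rgs13 shortens chemokine receptor signalling by acting on G proteins, and Gcsam is a signalling adaptor that restrains lymphocyte movement. Basp1 is a membrane-associated protein, also found in growing axons, that serves as a germinal centre marker. Fas is the death receptor carried by germinal centre B cells, by activated T cells and by many other cells. A whole B cell fraction holds mostly follicular and marginal zone B cells, so germinal centre transcripts in it come from a small part of the cells.

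All values are FPKM, read fragments scaled to transcript length and to the mapped fragments of each library, so levels of different genes can be set side by side per length. On GRCm38, Bcl6 lies at chr16:23965052-23988852, Gcsam at chr16:45610380-45622867, Mef2b at chr8:70139711-70167488 and S1pr2 at chr9:20962361-20976781. Rgs13 lies at chr1:144138654-144177372, Basp1 at chr15:25363277-25413764 and Fas at chr19:34290666-34327772. Each value is for the whole gene, over all its exons. Mef2b shares 62 of its 1404 exonic bases, 4.42%, with the neighbour Borcs8 on the same strand, so some reads could be counted for either gene. Borcs8 had 53.2, 56.2, 55.0 and 56.5 FPKM in young Hom B cells, against 52.6, 60.2, 49.97 and 54.2 FPKM in young WT B cells, so it did not follow the Mef2b values given below.

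The promoters of the 2 genes whose RNA was nearly restricted to the B cell fraction (Mef2b and Rgs13) and of the 2 genes whose B cell levels followed the group most closely (S1pr2 and Gcsam) are printed below from RefSeq, assembly GRCm38.p6, from 250 bases before to 50 bases after the annotated start. Capitals mark matches, on either strand, to the octamer ATGCAAAT, which is the site of the B cell factors Pou2f2 and Pou2af1, or to the E-box CAGGTG, a site of the E proteins.
Mef2b promoter, chr8:70152511-70152810, + strand: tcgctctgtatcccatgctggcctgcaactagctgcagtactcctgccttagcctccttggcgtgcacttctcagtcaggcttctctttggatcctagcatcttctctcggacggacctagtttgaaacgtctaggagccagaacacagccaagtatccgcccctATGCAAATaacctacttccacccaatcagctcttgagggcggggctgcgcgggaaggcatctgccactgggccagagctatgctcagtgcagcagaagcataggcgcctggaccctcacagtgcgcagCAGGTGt
Rgs13 promoter, chr1:144177323-144177622, - strand: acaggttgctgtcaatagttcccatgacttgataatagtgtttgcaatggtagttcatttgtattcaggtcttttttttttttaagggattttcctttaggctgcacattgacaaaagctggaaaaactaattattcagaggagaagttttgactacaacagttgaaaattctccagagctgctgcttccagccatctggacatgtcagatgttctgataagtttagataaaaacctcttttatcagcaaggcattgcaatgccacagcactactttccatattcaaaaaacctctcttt
S1pr2 promoter, chr9:20976744-20977043, - strand: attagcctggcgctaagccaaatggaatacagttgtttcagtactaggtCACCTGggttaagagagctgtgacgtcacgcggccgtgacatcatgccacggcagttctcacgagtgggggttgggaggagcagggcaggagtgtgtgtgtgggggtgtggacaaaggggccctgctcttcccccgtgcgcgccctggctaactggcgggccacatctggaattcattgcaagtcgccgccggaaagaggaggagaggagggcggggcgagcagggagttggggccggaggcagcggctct
Gcsam promoter, chr16:45610190-45610489, + strand: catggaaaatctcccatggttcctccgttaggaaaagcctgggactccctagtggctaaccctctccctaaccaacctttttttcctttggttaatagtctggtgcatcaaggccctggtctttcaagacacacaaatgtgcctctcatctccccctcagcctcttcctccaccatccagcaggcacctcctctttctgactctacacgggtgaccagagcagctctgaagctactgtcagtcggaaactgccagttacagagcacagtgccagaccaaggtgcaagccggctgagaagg
The Mef2b start in RefSeq lies inside the gene's span given above. The Mef2b window holds an octamer 78 to 85 bases before the start and an E-box 43 to 48 bases after it. The S1pr2 window holds the E-box in the reverse orientation, at bases 50 to 55 of the window, and the Rgs13 and Gcsam windows hold neither motif. Over all 32851 promoters of the same length, 1.74% hold the octamer and 20.2% the E-box. The palindrome TTCNNNGAA, a form bound by STAT factors and close to that of Bcl6, is in 8.3% of all promoters. Among the 7 genes it occurred in the Fas window and in both annotated Bcl6 windows, with 1 match in the first Bcl6 window (chr16:23988803-23989102) and 3 in the second (chr16:23981234-23981533). The MEF2 consensus, in 3.19% of all promoters, was in none of the 8 windows of the 7 genes. The motifs in each pair overlap nowhere in the printed windows, and a match describes letters only.

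The libraries held an estimated 9560000 to 25730000 fragments, with a median of 18755000, read from the steps of low FPKM values, so 1 FPKM of a 2 kb transcript stands for 19.12 to 51.46 fragments. Of the markers of the labelled cells, 9 B cell markers such as Cd79a and Ms4a1 summed to 5827 to 7532 FPKM in B cells, 38.3 to 199 in T cells and 54.3 to 204 in non-BT cells. The 10 T cell markers summed to 3239 to 3944 FPKM in T cells and reached 783 FPKM in old Hom non-BT cells. Red pulp macrophage markers were not confined to non-BT cells, with 914 to 1213 FPKM in young WT B cells and 680 to 842 FPKM in young WT non-BT cells. Immunoglobulin genes took 41.9% and 44.6% of all FPKM in the T cells of old Hom animal 2 and old WT animal 2, and 44.2% and 33.8% in their non-BT cells. These 2 old animals also differed from the other 12 in sex-linked RNA. Xist, made from the inactive X chromosome, was at 2.65 to 6.38 FPKM in their 6 libraries and at 0 to 0.219 FPKM in the other 36. Eif2s3y, a Y-linked gene, was at 0.0331 to 0.234 FPKM in those 6 libraries and at 34.1 to 60.2 FPKM in the other 36. Values without the animals numbered 2 are given beside results for old animals where they turned a direction or moved a printed difference by over 1.5 times.

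Of the 7 genes, only Rgs13 and Mef2b were nearly restricted to the B cell fraction, by the levels in the 14 libraries of each fraction. Rgs13 had a median of 8.30 FPKM in B cells, with a range of 4.40 to 27.1 FPKM, and was listed at 0 in 12 of 14 T cell libraries and 9 of 14 non-BT libraries. Its highest value outside B cells was 0.349 FPKM, so no library of the other fractions reached the lowest B cell library. Mef2b had a median of 21.3 FPKM in B cells (4.83 to 106), against 1.49 FPKM in T cells (0.0412 to 9.66) and 0.951 FPKM in non-BT cells (0 to 9.23). The ranges of Mef2b overlapped between fractions, since the T and non-BT libraries of the old animals numbered 2 were above the lowest B cell libraries.

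Bcl6 had like medians in B and non-BT cells and a lower one in T cells. Its median was 38.6 FPKM in B cells (20.9 to 47.8), 10.7 FPKM in T cells (6.69 to 14.8) and 38.5 FPKM in non-BT cells (25.3 to 49.8). Fas was lower in B cells, with a median of 11.6 FPKM (3.49 to 52.4), than in T cells, with 34.6 FPKM (20.7 to 47.1), or in non-BT cells, with 29.0 FPKM (21.9 to 43.6). Fas is widely used to mark germinal centre cells among B cells, which is a comparison within that fraction.

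S1pr2, Gcsam and Basp1 were detected at similar or higher levels outside B cells. S1pr2 had a median of 7.16 FPKM in B cells (1.10 to 22.6), 9.49 FPKM in T cells (6.09 to 12.4) and 11.1 FPKM in non-BT cells (7.17 to 17.0). Gcsam had a median of 4.55 FPKM in B cells (0.187 to 27.4), 6.55 FPKM in T cells (3.95 to 8.84) and 7.72 FPKM in non-BT cells (4.75 to 12.6). Basp1 had a median of 1.996 FPKM in B cells (0.250 to 6.26), 1.502 FPKM in T cells (0.410 to 4.01) and 8.57 FPKM in non-BT cells (1.44 to 20.6). For S1pr2 and Gcsam the B cell range was the widest of the 3 fractions, with both the lowest and the highest library of all 42 among the B cells. Their SD in B cells was 7.37 FPKM for S1pr2 and 7.09 FPKM for Gcsam, while the T cell SDs were 1.93 and 1.57 FPKM and the non-BT cell SDs 2.56 and 2.39 FPKM.

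**Figure D1:**
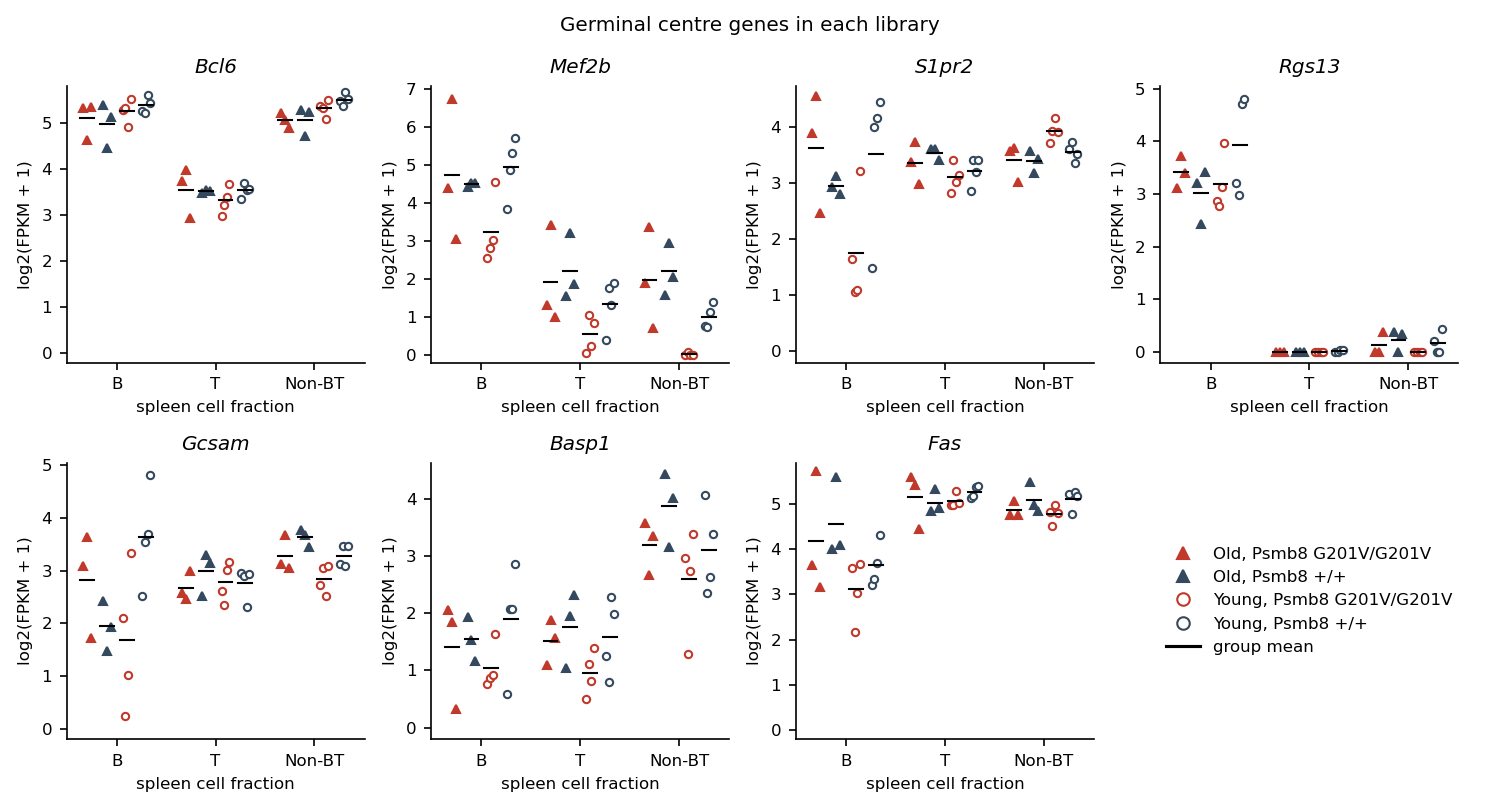
log2(FPKM + 1) of each germinal centre gene (y axis) in the B, T and non-BT fractions (x axis), with 1 point per library and a bar at each group mean; within a fraction the groups run from left to right as old Hom, old WT, young Hom and young WT. Rgs13 stands at or near 0 outside B cells, Mef2b is highest in B cells, and Bcl6 is at like levels in B and non-BT cells (medians of 38.6 and 38.5 FPKM).

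A fit of log2(FPKM + 1) over all 42 libraries with limma, with the animal as a block, tested the fraction differences averaged over the 4 groups of each fraction. A gene was called at a Benjamini-Hochberg adjusted p under 0.05, over 15143 genes. In B against T cells 4 of the 7 genes were called, where 55% of all genes were. Bcl6 was higher in B cells by 1.70 ± 0.10 on the log2 scale (SE, adjusted p = 5.85e-17), Mef2b by 2.85 ± 0.29 (adjusted p = 1.63e-10), and Fas was lower by -1.25 ± 0.19 (adjusted p = 6.57e-07). Rgs13 was called as well (adjusted p = 5.12e-21). It reached 1 FPKM in B cell libraries only, so it entered the fit through the fraction where it is high. Its calls against T and non-BT cells therefore add no support to the levels given above. Its fitted difference also depends on the constant added before the log, 3.38 with 1 FPKM and 6.52 with 0.1 FPKM, so no fold is given against libraries listed at 0. S1pr2 differed by -0.34 ± 0.22 (95% interval -0.79 to 0.11), Gcsam by -0.28 ± 0.23 (-0.74 to 0.17) and Basp1 by 0.02 ± 0.24 (-0.47 to 0.51), with adjusted p of 0.201, 0.3 and 0.957.

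In B against non-BT cells 6 of the 7 genes were called, where 68.7% of all genes were. Mef2b was higher in B cells, by 3.04 ± 0.29 (limma, adjusted p = 2.13e-11), and so was Rgs13, with the limit given above. Basp1 was lower in B cells by -1.72 ± 0.24 (adjusted p = 1.07e-07), Fas by -1.09 ± 0.19 (5.22e-06), Gcsam by -0.74 ± 0.23 (0.00407) and S1pr2 by -0.60 ± 0.22 (0.0159). The calls of Gcsam and S1pr2 were lost with quantile normalization, at -0.38 and -0.29 with adjusted p of 0.103 and 0.186. Bcl6 differed by -0.06 ± 0.10 (95% interval -0.26 to 0.14). In T against non-BT cells 2 of 7 were called, where 64.4% of all genes were: Bcl6 was lower in T cells by -1.76 ± 0.10 and Basp1 by -1.74 ± 0.24. Rgs13, counted among these 7, was under 1 FPKM in every library of both fractions. Gcsam differed by -0.46 ± 0.23 (adjusted p = 0.0738), which was called without old Hom animal 3 (-0.53, 0.0474) or young Hom animal 4 (-0.47, 0.0449). In both comparisons with B cells most genes of the genome-wide fit were called, so the members' counts of 4 and 6 are not read as a property of these 7 genes.

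In young B cells, the level of most germinal centre genes was lower on average in Hom than in WT mice, but the libraries of each genotype spread widely, and no gene passed the test. S1pr2 had 2.15, 1.10, 1.14 and 8.36 FPKM in the Hom libraries of animals 1 to 4, against 1.80, 14.9, 16.9 and 20.9 FPKM in the WT libraries. Gcsam had 3.32, 0.187, 1.02 and 9.15 FPKM in Hom B cells, against 4.71, 10.7, 11.98 and 27.4 FPKM in WT B cells. For both genes Hom animal 4 stood above the other Hom libraries and WT animal 1 below the other WT libraries, and the genotypes overlapped through these libraries. The fitted difference, Hom minus WT, was -1.76 ± 0.63 for S1pr2 and -1.97 ± 0.62 for Gcsam on the log2 scale (limma, SE, n = 4 each, adjusted p of 0.359 and 0.287).

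Mef2b had 4.83, 6.02, 7.10 and 22.2 FPKM in young Hom B cells, against 13.3, 28.3, 38.8 and 51.5 FPKM in young WT B cells. The 3 lower Hom libraries were below every WT library, and Hom animal 4 was above WT animal 1. The difference was -1.71 ± 0.64 (limma, adjusted p = 0.384). Rgs13 had 6.31, 5.87, 7.80 and 14.6 FPKM in young Hom B cells, against 8.29, 6.87, 25.3 and 27.1 FPKM in young WT B cells. WT animals 1 and 2 were within the Hom range for Rgs13 and WT animals 3 and 4 above it, with a difference of -0.74 ± 0.41 (adjusted p = 0.605). Basp1 had 0.702, 0.835, 0.885 and 2.11 FPKM in young Hom B cells, against 0.507, 3.22, 3.20 and 6.26 FPKM in young WT B cells. WT animal 1 was the lowest of the 8 libraries for Basp1 and the other WT libraries were above every Hom library, with a difference of -0.85 ± 0.45 (adjusted p = 0.591).

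Fas and Bcl6 had the differences nearest to 0 of the 7. Fas had 10.9, 3.49, 7.16 and 11.7 FPKM in young Hom B cells, against 8.25, 9.19, 11.96 and 19.0 FPKM in young WT B cells, with much overlap and a difference of -0.53 ± 0.52. Bcl6 had 37.9, 39.4, 29.0 and 44.9 FPKM in young Hom B cells, against 37.5, 36.4, 47.8 and 42.1 FPKM in young WT B cells. The genotypes covered like ranges for Bcl6, and its difference was -0.12 ± 0.21 (limma, 95% interval -0.57 to 0.32, adjusted p = 0.902). Hom animal 4 was the highest Hom library for all 7 genes. WT animal 4, whose label names Psmb9, was the highest WT library for 6 of them, and WT animal 3 was the highest for Bcl6.

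**Figure D2:**
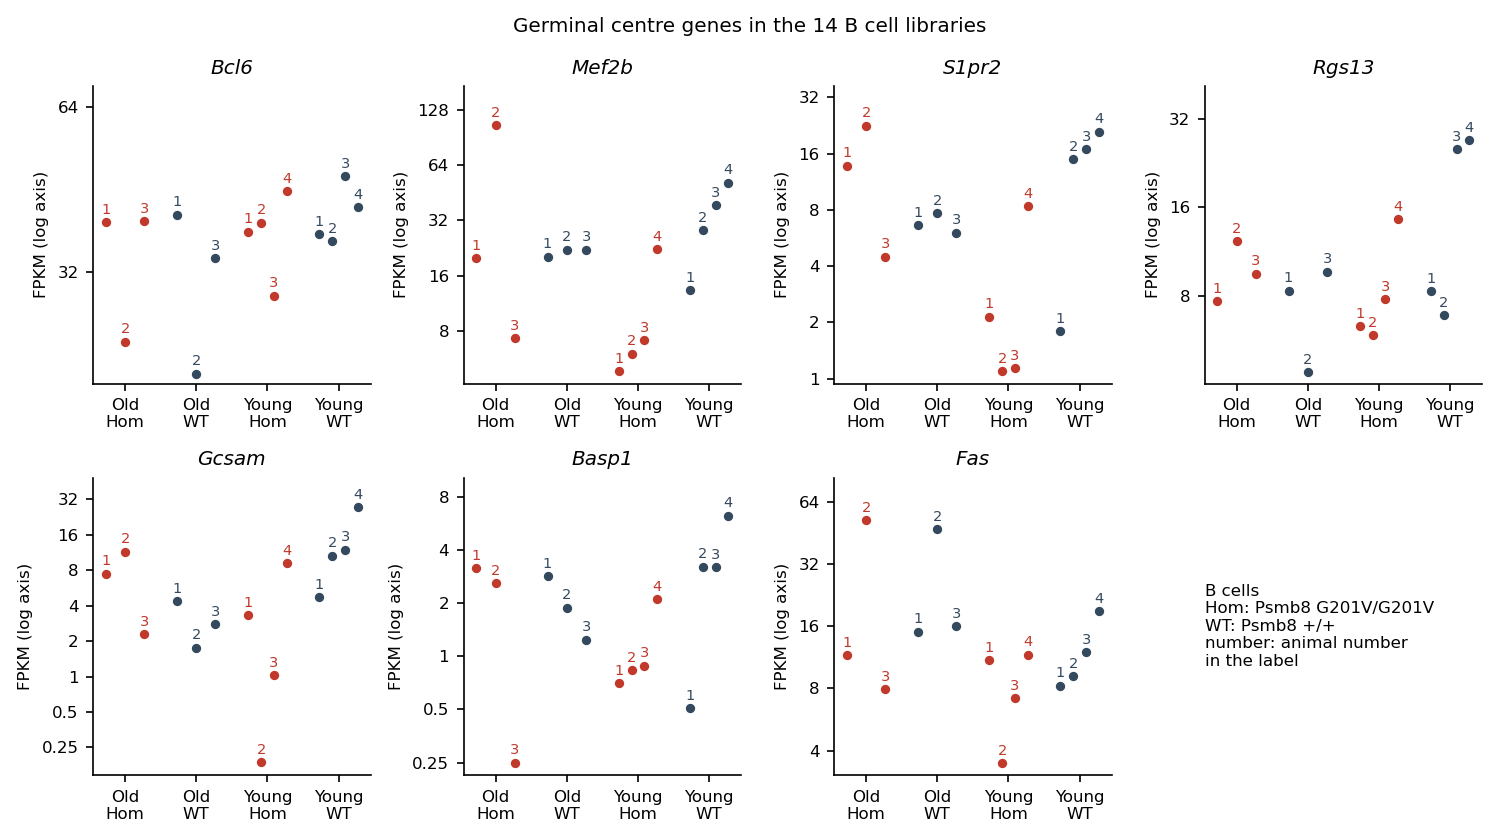
FPKM on a log axis (y) of each germinal centre gene in the 14 B cell libraries, by group (x), with 1 point per library and the animal number above it. In young B cells Hom animal 4 is the highest Hom library in each panel, and in old B cells both animals numbered 2 stand high for Fas and low for Bcl6.

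No gene of the 7 was called between young Hom and young WT B cells (limma), where 0.0734% of all 12269 genes were, and 3 of the 7, S1pr2, Gcsam and Mef2b, had an unadjusted p under 0.05, as had 1152 of all genes. In none of the 7 were all Hom libraries below or above all WT libraries, against 7.82% of all genes. All 7 differences were negative, with a median of -0.85, beside -0.02 over all genes tested. None of these differences was called. In bulk RNA, the number of germinal centre cells, their RNA per cell and RNA of other cells in the B cell fraction cannot be told apart. Library names fall into the series GB13 (animals 1 and 2) and GB14 (animals 3 and 4) among the young mice, with both genotypes in each. All old libraries are of GB13. Series and age are thus partly confounded in comparisons of old with young mice, and of the genotype difference between ages. Within GB13 and GB14 the difference was -1.38 and -2.15 for S1pr2, -1.85 and -2.08 for Gcsam, -1.68 and -1.73 for Mef2b, -0.27 and -1.21 for Rgs13, -0.51 and -1.19 for Basp1, -0.41 and -0.66 for Fas, and 0.06 and -0.30 for Bcl6. Without the library labelled Psmb9 it was -1.45 for S1pr2, -1.57 for Gcsam, -1.45 for Mef2b, -0.45 for Rgs13 and -0.53 for Basp1, and no gene was called.

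**Figure D3:**
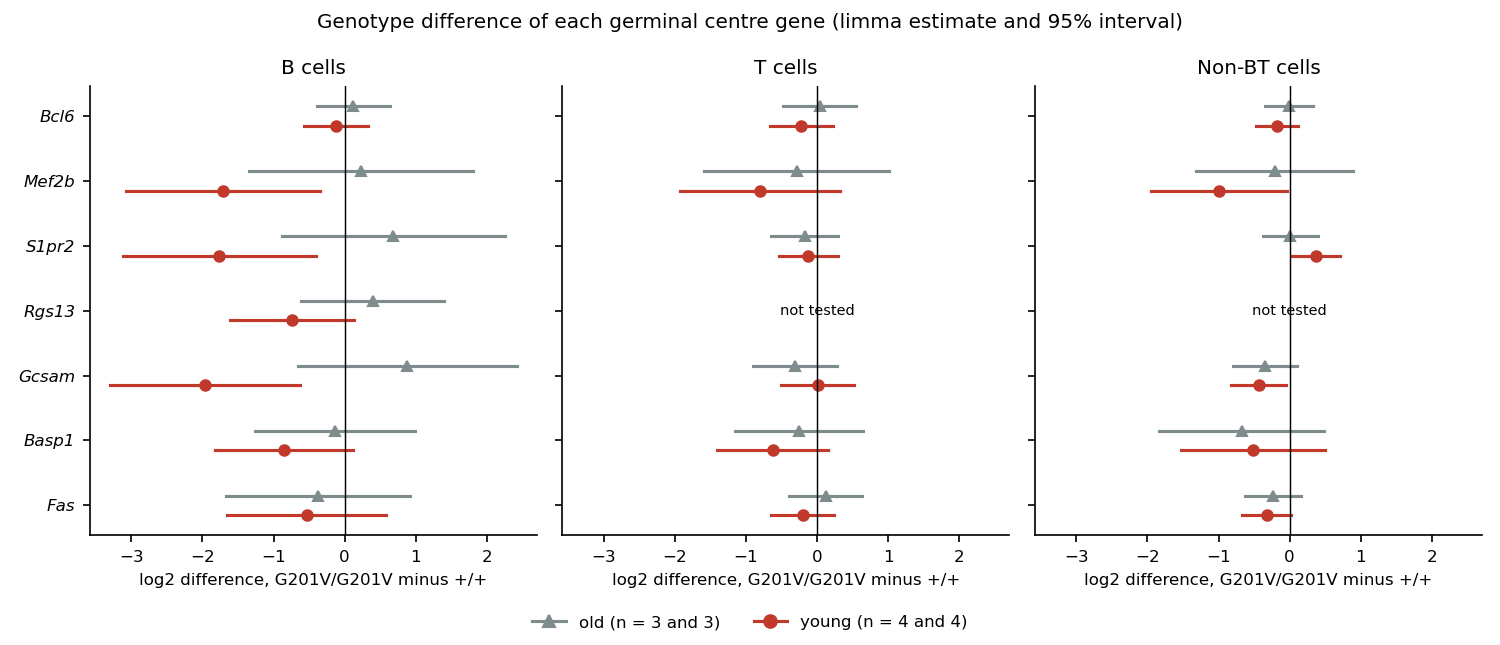
Difference between Hom and WT (x axis, log2 scale, Hom minus WT) of each germinal centre gene (y axis) in the B, T and non-BT fractions, as the limma estimate with its 95% interval, for old (triangles) and young mice (circles). The young B cell estimates of S1pr2 (-1.76), Gcsam (-1.97) and Mef2b (-1.71) lie lowest, and the old B cell estimates of these genes lie above 0.

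Of the 14 other genes of the germinal centre programme tested in young B cells, 0 were called, 9 had a negative and 5 a positive difference, and the median was -0.21. Of the genes of smallest p, Nuggc and Neil1 are given by library. Nuggc, a germinal centre nuclear GTPase, had 0.661, 0.858, 0.585 and 2.96 FPKM in Hom B cells, against 2.24, 3.53, 5.91 and 11.2 FPKM in WT B cells. Neil1, a DNA glycosylase, had 12.4, 18.4, 17.1 and 23.7 FPKM in Hom B cells, against 24.6, 29.7, 31.8 and 35.3 FPKM in WT B cells. Hom animal 4 was the highest Hom library for both genes, as for all 7 members. WT animal 1 was the lowest WT library for both, as for 5 of the 7 members. Neil1 kept the genotypes apart while Nuggc did not. The difference was -1.5 ± 0.46 for Nuggc and -0.75 ± 0.22 for Neil1 (limma, adjusted p of 0.264 and 0.253), and that of Plxnb2 was -0.9996 ± 0.33 (0.295).

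Of the 17 transcription factors and corepressors tested, 0 were called (median 0.06), and the smallest p was that of Tcf3 (-0.27 ± 0.08, limma, adjusted p = 0.266), which encodes an E protein. Of the 17 genes known as Bcl6-repressed 0 were called (median -0.07), of the 23 of S1pr2 and G protein signalling 0 (median 0.00) and of the 11 of the Fas pathway 0 (median -0.06). In the signalling list Rgs10 differed by -0.73 ± 0.21 and S1pr3 by -0.89 ± 0.27 (adjusted p of 0.230 and 0.276). In the Fas pathway Fcmr, an IgM receptor also described as an inhibitor of Fas, differed by 0.23 ± 0.10 and Tnfrsf1a by -0.70 ± 0.29 (0.454 and 0.456). Over these 4 lists the medians were near the -0.02 of all genes.

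Among the other lists in young B cells, those of cell cycle genes, follicular helper T cells, red pulp macrophages and plasma cells had negative medians, while the neutrophil list was positive in 4 of 5 genes (median 0.59, 0 called) and conventional dendritic cells were split, with 3 positive and 4 negative (median -0.02, 0 called). Monocyte markers summed to 82.7 to 87.0 FPKM in Hom and 148 to 183 FPKM in WT B cells. The endothelial list had a mean log2(FPKM + 1) of 1.55 to 1.60 in Hom and 1.96 to 2.18 in WT B cells. That of mast cells and basophils overlapped, at 0.16 to 0.23 in Hom and 0.11 to 0.41 in WT B cells. All 20 cell cycle genes had a negative difference, with 0 called and a median of -0.78. The mean log2(FPKM + 1) of the list was 3.02, 2.84, 3.02 and 3.74 in the 4 Hom libraries, against 3.18, 3.75, 4.20 and 4.54 in the 4 WT libraries, with the highest library of each genotype again animal 4. All 9 tested genes of follicular helper T cells were negative too (median -0.50, 0 called), with Pdcd1 at -1.39 ± 0.55 (limma, adjusted p = 0.419) and Cd40lg at -0.78 ± 0.21 (0.201). Summed FPKM of 10 general T cell markers in these B cell libraries was 51.2 to 63.8 in Hom mice and 60.2 to 84.6 in WT mice.

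All 12 red pulp macrophage markers were negative, with a median of -1.65. The summed level of these 12 was 235 to 422 FPKM in young Hom B cells and 914 to 1213 FPKM in young WT B cells, with no overlap. Cd163, the haemoglobin scavenger receptor of these macrophages, was called (-3.16 ± 0.36, limma, adjusted p = 0.00288), and so was Stab2 of the endothelial list (-1.52 ± 0.23, 0.0290). Plasma cell markers were negative in 8 of 9 genes (median -0.56, 0 called), summing to 1144 to 1595 FPKM in Hom and 2095 to 3295 FPKM in WT B cells. The erythroid list was negative in 5 of 7 genes (median -1.65, 0 called), summing to 54.6 to 182 FPKM in Hom and 209 to 1019 FPKM in WT B cells. B cell markers summed to 6717 to 7295 FPKM in Hom and 6814 to 7532 FPKM in WT B cells. The follicular dendritic cell and stromal list was at 8.38 to 11.6 FPKM in Hom and 12.9 to 24.9 FPKM in WT B cells, with Col1a1 at 0 in every WT library. The part of these other cells in the germinal centre values was not tested. Young Hom animal 4, the highest Hom library for all 7 germinal centre genes, ranked differently between lists. Among the 4 Hom libraries its mean was lowest for macrophages (3.78, against 4.11 to 4.43) and highest for plasma cells (5.22, against 5.015 to 5.06). What lies behind this order was not tested.

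**Figure D4:**
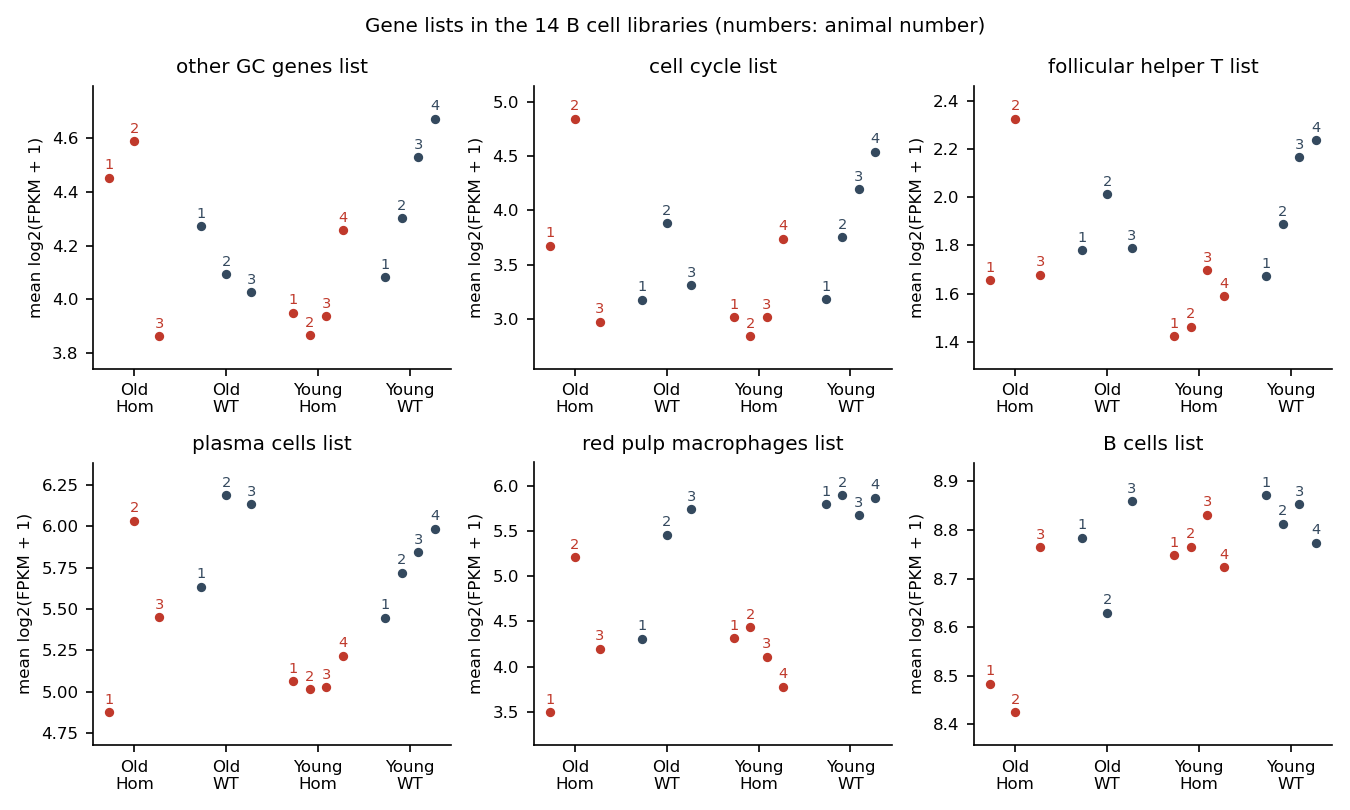
Mean log2(FPKM + 1) of 6 gene lists (y axis) in the 14 B cell libraries by group (x axis), with the animal number above each point. The cell cycle list spans 2.84 to 3.74 in young Hom and 3.18 to 4.54 in young WT libraries with overlap, while the red pulp macrophage list spans 3.78 to 4.43 in young Hom and 5.67 to 5.90 in young WT libraries without overlap.

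In old B cells the mean levels of S1pr2, Gcsam, Mef2b and Rgs13 were higher in Hom than in WT mice, with wide spread among the 3 Hom libraries and no gene past the test. S1pr2 had 13.8, 22.6 and 4.50 FPKM in old Hom B cells, against 6.61, 7.71 and 6.03 FPKM in old WT B cells. Gcsam had 7.52, 11.55 and 2.30 FPKM in old Hom B cells, against 4.40, 1.76 and 2.79 FPKM in old WT B cells. For both genes Hom animals 1 and 2 were above all 3 WT libraries, and for S1pr2 Hom animal 3 was below all 3. Mef2b had 20.0, 106 and 7.32 FPKM in old Hom B cells, against 20.3, 22.2 and 22.2 FPKM in old WT B cells. Old Hom animal 2 had the highest Mef2b level of all 42 libraries, and the WT libraries lay within the Hom range.

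Rgs13 had 7.67, 12.3 and 9.51 FPKM in old Hom B cells, against 8.31, 4.40 and 9.67 FPKM in old WT B cells, and Basp1 had 3.15, 2.59 and 0.250 FPKM, against 2.83, 1.88 and 1.24 FPKM in the WT. Both genes overlapped between genotypes. Fas had 11.6, 52.4 and 7.93 FPKM in old Hom B cells, against 15.04, 47.3 and 16.0 FPKM in old WT B cells. Bcl6 had 39.4, 23.9 and 39.7 FPKM in old Hom B cells, against 40.7, 20.9 and 33.9 FPKM in old WT B cells. The 2 animals numbered 2 held the 2 highest Fas levels and the 2 lowest Bcl6 levels of the 14 B cell libraries, whose other 12 ran from 3.49 to 19.0 FPKM for Fas and from 29.0 to 47.8 FPKM for Bcl6. These are the animals with Xist RNA and almost no RNA of Y-linked genes, and the part of sex in these levels was not tested.

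No gene of the 7 was called between old Hom and old WT B cells (limma, 0 of 7 at an unadjusted p under 0.05, beside 1237 of all genes), where 0.00815% of all genes were, and in none did the genotypes stand apart, against 12.5% of all genes. The differences were 0.88 ± 0.72 for Gcsam, 0.68 ± 0.73 for S1pr2, 0.39 ± 0.47 for Rgs13, 0.23 ± 0.74 for Mef2b, 0.12 ± 0.24 for Bcl6, -0.14 ± 0.52 for Basp1 and -0.38 ± 0.60 for Fas (SE, n = 3 each, adjusted p from 0.729 to 0.961). Without the animals numbered 2 they were 0.23 for Gcsam, 0.30 for S1pr2, -0.06 for Rgs13, -0.75 for Mef2b, 0.09 for Bcl6, -0.36 for Basp1 and -0.64 for Fas, so the sign of Rgs13 and Mef2b turned. The cell cycle list was positive in 20 of 20 genes (median 0.38, 0 called), with the animals numbered 2 included. No list was refitted without them. Its mean log2(FPKM + 1) was 3.67, 4.85 and 2.98 in old Hom B cells, against 3.18, 3.88 and 3.31 in old WT B cells, so animal 2 was the highest of each genotype and Hom animal 3 the lowest of the 6. The other genes of the germinal centre programme had a median of 0.13 with 0 of 14 called. The macrophage list was negative in 12 of 12 genes (median -0.81, 0 called) and the plasma cell list in 8 of 9 (median -0.58, 0 called).

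The test of whether the genotype difference changes with age, old minus young, called 0 of the 7 genes (limma), and 0% of all genes. It was 2.85 ± 0.95 for Gcsam and 2.44 ± 0.97 for S1pr2, which had an unadjusted p under 0.05 (adjusted p of 0.679 and 0.690), as had 868 of all genes. Mef2b differed by 1.94 ± 0.97 and Rgs13 by 1.13 ± 0.62 (0.703 and 0.742), and Basp1, Bcl6 and Fas by 0.71, 0.24 and 0.16. Without the animals numbered 2 it was 2.196 for Gcsam, 2.07 for S1pr2, 0.95 for Mef2b, 0.68 for Rgs13 and -0.10 for Fas. Averaged over both ages, 0 of the 7 genes were called between Hom and WT B cells, where 0.693% of all genes were, with the difference of Mef2b (-0.74 ± 0.49, and -1.23 without the animals numbered 2) farthest from 0. Of the 7, 0 had an unadjusted p under 0.05, beside 1468 of all genes.

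Between ages, 0 of the 7 genes were called in Hom B cells (limma), where 0.0163% of all genes were, and 0 in WT B cells, where 0% of all genes were. The old libraries are all of the series GB13 and the young ones of GB13 and GB14, so series enters the age differences of each fraction. In Hom B cells S1pr2 was at 13.6 ± 9.04 FPKM in old and 3.19 ± 3.48 FPKM in young mice (SD, n = 3 and 4), a difference of 1.87 ± 0.69 (adjusted p = 0.247). Mef2b was at 44.4 ± 53.6 FPKM in old and 10.05 ± 8.18 FPKM in young Hom B cells, a difference of 1.501 ± 0.69 (0.341), and 0.50 without the animals numbered 2. In WT B cells Gcsam was at 2.98 ± 1.33 FPKM in old and 13.7 ± 9.67 FPKM in young mice, a difference of -1.71 ± 0.67 (0.729). These 3 values had an unadjusted p under 0.05, as had 1751 of all genes in Hom and 768 in WT B cells. Fas was 1.07 ± 0.56 higher in old than in young Hom B cells and 0.92 ± 0.56 in WT B cells, but 0.30 and 0.40 without the animals numbered 2.

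Among the 10 genes whose pattern over the 14 B cell libraries was most like the mean of the 7 (each gene standardised) were Nuggc (Pearson r = 0.961), Ada (0.949), Cep55 (0.928), Bag2 (0.909), Asf1b (0.907), Rrm1 (0.899), Nek2 (0.884), Mcm2 (0.878) and Cdc20 (0.877), out of 12269 genes. Nuggc is on the germinal centre list, and Cep55, Nek2 and Cdc20 act in cell division, Rrm1 and Mcm2 in DNA replication. The mean itself was highest in young WT animal 4 (1.41 standard units), young WT animal 3 (0.99) and old Hom animal 2 (0.83), and lowest in young Hom animals 2 (-1.15) and 3 (-0.997). Gcsam followed the mean of the 7 with r = 0.936, S1pr2 with 0.928, Mef2b with 0.886, Basp1 with 0.873 and Rgs13 with 0.783, each being part of that mean, while Fas did so with 0.519 and Bcl6 with 0.215. Fas and Bcl6 thus followed the mean least of the 7.

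Taken singly in B cells, the 3 genes most like Gcsam included Cdc20 (0.890) and Suv39h1 (0.885), and those most like S1pr2 were Ighg2c (0.940), Cdc20 (0.911) and Aurka (0.908). Those most like Mef2b were Lbhd1 (0.969), Nars (0.952) and Ada (0.950), those most like Basp1 Asf1b (0.896), Fzr1 (0.882) and Nuggc (0.874), and those most like Rgs13 Mapre2 (0.881), Pdcd6ip (0.875) and Hnrnpk (0.866). Ighg2c encodes a switched antibody heavy chain. Fas was most like Nt5e (0.946), which encodes the ectonucleotidase CD73, Fgl2 (0.939) and Fah (0.928). Bcl6 was most like Gm11346 (0.902), Frmd6 (0.882) and the Y-linked Eif2s3y (0.872), which is nearly absent from the 2 old animals numbered 2. These correlations are over 14 libraries that differ in depth, age group and genotype, so such differences enter them. They describe these libraries only.

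In T cells, where Rgs13 was not tested because no library reached 1 FPKM, 0 of the other 6 genes were called between young Hom and young WT mice (limma, 0 of 6 at an unadjusted p under 0.05), and 0% of all 13193 genes were (1144 at an unadjusted p under 0.05). In old T cells 0 of 6 were called too, where 0% of all genes were (502 at an unadjusted p under 0.05). The groups overlapped for each of the 6 genes, against 6.52% of all genes standing apart in young and 7.7% in old T cells. Averaged over ages 0 of 6 were called, where 0.00758% of all genes were, and in the test of the difference between ages 0 of 6, where 0% of all genes were (511 at an unadjusted p under 0.05). None of the 6 had an unadjusted p under 0.05 in either test, beside 1072 of all genes in the average over ages. The young differences ran from -0.80 ± 0.52 for Mef2b and -0.63 ± 0.36 for Basp1 to 0.01 ± 0.24 for Gcsam, which was -0.45 within GB13 and 0.47 within GB14. The old ones ran from -0.31 ± 0.28 for Gcsam to 0.12 ± 0.24 for Fas. Without the animals numbered 2 the old difference was -0.05 for Gcsam, -0.54 for Mef2b, -0.33 for S1pr2 and -0.16 for Bcl6, which had been 0.03.

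In T cells Bcl6 was at 11.3 ± 4.15 FPKM in old Hom, 10.5 ± 0.326 FPKM in old WT, 9.14 ± 2.01 FPKM in young Hom and 10.7 ± 1.08 FPKM in young WT T cells (SD). S1pr2 was at 9.56 ± 2.74, 10.7 ± 0.889, 7.68 ± 1.48 and 8.46 ± 1.59 FPKM in these 4 groups in the same order, and group means next to each other in height differed by less than the larger of their SDs for both genes. Fas had 47.1, 42.1 and 20.7 FPKM in old Hom T cells, against 27.9, 39.5 and 28.9 FPKM in old WT T cells. It had 30.5, 30.4, 37.9 and 31.3 FPKM in young Hom T cells, against 33.9, 35.4, 40.5 and 41.0 FPKM in young WT T cells. The genotypes overlapped at both ages, and the old Hom libraries held both the highest and the lowest Fas level in T cells. Mef2b had 1.51, 9.66 and 1.01 FPKM in old Hom T cells, against 1.91, 8.18 and 2.67 FPKM in old WT T cells. It had 0.0412, 1.07, 0.181 and 0.777 FPKM in young Hom T cells, against 0.322, 2.42, 1.47 and 2.70 FPKM in young WT T cells. The 2 animals numbered 2 were above the other 12 T cell libraries, which did not pass 2.70 FPKM.

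Old against young T cells gave 0 of 6 calls in Hom mice (limma, 1 at an unadjusted p under 0.05), where 1.14% of all genes were called. In WT mice there were 0 of 6 calls (0 at an unadjusted p under 0.05), where 0.227% were called. Of all 13193 genes, 1952 in Hom and 1402 in WT mice had an unadjusted p under 0.05. Mef2b was 1.37 ± 0.57 higher in old than in young Hom T cells (limma, adjusted p = 0.286), was called with the replicate number as a block (adjusted p = 0.0296), and was 0.62 without the animals numbered 2. The 6 genes followed their own mean in T cells unequally, with r of 0.884 for Mef2b, 0.842 for Bcl6, 0.787 for S1pr2, 0.657 for Basp1, 0.596 for Fas and 0.213 for Gcsam. The 10 genes most like the mean of the 6 in T cells included Vps54 (r = 0.927), Icos (0.915), Fut8 (0.914), Pou2af1 (0.910), Ctla4 (0.900), Bcl2a1b (0.899), Slpi (0.899), Sostdc1 (0.887) and Izumo1r (0.887) over 14 libraries. Icos and Ctla4 are receptors of activated and follicular T cells. The follicular helper T cell list had 0 of 12 called in young T cells, 11 negative, with a median of -0.66.

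In non-BT cells Mef2b separated the genotypes in young mice. It had 0, 0.0515, 0 and 0 FPKM in young Hom non-BT cells, against 0.705, 0.651, 1.20 and 1.65 FPKM in young WT non-BT cells. Each WT library was above each Hom library, which held for 1 of the 6 genes tested. Of all genes, 7.91% stood apart in this direction and 12.8% in either direction. The count of 1 in 6 is therefore not read as a property of these genes. The difference was -0.99 ± 0.44 on the log2(FPKM + 1) scale (limma, adjusted p = 0.339), which understates changes of such low levels. With 0.1 FPKM as the constant it was -3.29 and called (adjusted p = 0.0284), so its size depends on the constant and no fold is given, 3 of the 4 Hom libraries being listed at 0. Within GB13 it was -0.71 and within GB14 -1.27. In this comparison 0 of 6 genes were called, where 1.69% of all 13587 genes were, and 3, Mef2b, Gcsam and S1pr2, had an unadjusted p under 0.05, as had 1891 of all genes.

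Gcsam had 5.59, 7.31, 4.75 and 7.55 FPKM in young Hom non-BT cells, against 7.71, 10.1, 7.48 and 10.1 FPKM in young WT non-BT cells. S1pr2 had 12.1, 14.3, 17.0 and 14.1 FPKM in young Hom non-BT cells, against 11.3, 12.3, 9.23 and 10.5 FPKM in young WT non-BT cells. The genotypes overlapped by 1 library each for both genes, Gcsam lying lower in Hom mice (-0.44 ± 0.18, limma, adjusted p = 0.289) and S1pr2 higher (0.37 ± 0.16, 0.304), with 0.14 within GB13 and 0.60 within GB14. Fas differed by -0.33 ± 0.16, Bcl6 by -0.18 ± 0.14 and Basp1 by -0.52 ± 0.47 (0.381, 0.603 and 0.675). B cell markers, which mark the cells that express Mef2b most, summed to 54.3 to 70.3 FPKM in young Hom and 55.8 to 108 FPKM in young WT non-BT cells and were negative in 8 of 8 genes, 0 called. Plasma cell markers were negative in 9 of 9 with 3 called, among them Jchain (-2.08 ± 0.32, 0.00854), and summed to 440 to 515 FPKM in Hom and 793 to 1490 FPKM in WT. All 8 plasmacytoid dendritic cell markers were called lower in Hom mice, such as Ly6d (-2.79 ± 0.33, 0.00238). Of the germinal centre programme Cd83 was called lower (-0.88 ± 0.17, 0.0238), and of the transcription factors Spib (-1.23 ± 0.23, 0.0182) and Irf8 (-0.55 ± 0.13, 0.0470), which dendritic cells also express. The part of these cells in the Mef2b values was not tested.

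In old non-BT cells Mef2b had 2.72, 9.23 and 0.628 FPKM in Hom mice, against 2.002, 6.68 and 3.18 FPKM in WT mice, with the genotypes overlapping. Of the 6 genes 0 were called (limma, 0 at an unadjusted p under 0.05), where 0% of all genes were (785 at an unadjusted p under 0.05), and none stood apart, against 7.47% of all genes. The Mef2b difference was -0.21 ± 0.51, and -0.52 without the animals numbered 2. Averaged over ages 0 of 6 were called (limma), where 1.18% of all genes were, with Gcsam at -0.39 ± 0.14 and Fas at -0.28 ± 0.12 (adjusted p of 0.215 and 0.333). These were the 2 with an unadjusted p under 0.05, as had 1780 of all genes. The difference between ages in the genotype effect called 0 of 6 (limma, 0 at an unadjusted p under 0.05), where 0% of all genes were (723 at an unadjusted p under 0.05).

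Old against young non-BT cells gave 0 of 6 calls in Hom mice (limma, 3 at an unadjusted p under 0.05), where 2.16% of all genes were called. In WT mice there were 0 of 6 calls (2 at an unadjusted p under 0.05), where 0.199% were called. Of all 13587 genes, 2175 in Hom and 2160 in WT mice had an unadjusted p under 0.05. Mef2b had 1.97 ± 0.48 as its difference in Hom mice (limma, adjusted p = 0.0521) and 1.19 ± 0.48 in WT mice (0.264). The Hom value was 1.28 without the animals numbered 2. It depends on the added constant, being 4.59 with 0.1 FPKM, and was then called (adjusted p = 0.00502), as it was with array weights (1.80, 0.02), with the replicate block (0.0159), without old Hom animal 3 (2.61, 0.00242) and without old WT animal 2 (0.0365). The same comparison called 3 of 8 B cell markers higher in old Hom mice, among them Cd79a (2.35 ± 0.40, 0.00784), and 6 of 9 plasma cell markers, among them Jchain (3.91 ± 0.34, 0.000219). Immunoglobulin genes took 9.54% to 44.2% of FPKM in old Hom and 1.04% to 1.42% in young Hom non-BT cells. The part of B lineage cells in the Mef2b difference was not tested.

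Basp1 was highest in non-BT cells in all 4 groups. It was at 8.48 ± 2.86 FPKM in old Hom, 14.6 ± 6.36 FPKM in old WT, 5.86 ± 3.35 FPKM in young Hom and 8.66 ± 5.33 FPKM in young WT non-BT cells (SD), and means next to each other in height differed by less than the larger of their SDs. Bcl6 in non-BT cells was at 32.6 ± 3.92 FPKM in old Hom, 33.2 ± 6.89 FPKM in old WT, 39.4 ± 4.69 FPKM in young Hom and 44.6 ± 3.89 FPKM in young WT mice. Its old minus young difference was -0.43 ± 0.15 in WT mice (limma, adjusted p = 0.203, and -0.25 without the animals numbered 2) and -0.27 ± 0.15 in Hom mice (0.406). In non-BT cells the 6 genes shared no single pattern. Their r with their own mean was 0.81 for Fas, 0.637 for Gcsam, 0.61 for Basp1, 0.489 for Mef2b, 0.322 for Bcl6 and -0.052 for S1pr2. The genes most like the mean of the 6 in non-BT cells were Gpr183 (r = 0.916), Limd2 (0.914), Cd80 (0.899), C1qc (0.897), Tctex1d2 (0.890), Fem1c (0.887), Batf3 (0.884), St8sia1 (0.880), Tcf7 (0.879) and Btg2 (0.878) over 14 libraries. None of the 10 was among those most like the germinal centre genes in B or T cells.

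Whether the genotype difference was particular to B cells was tested over all 42 libraries. The young genotype difference in B cells minus that in non-BT cells called 0 of 7 genes (limma, 2 at an unadjusted p under 0.05, beside 1754 of all genes), where 0.911% of all genes were called. It was -2.14 ± 0.58 for S1pr2 (adjusted p = 0.0705), -1.53 ± 0.59 for Gcsam (0.266) and -0.72 ± 0.76 for Mef2b (0.802), and S1pr2 was called without young Hom animal 4 (-2.63, 0.0265), without young WT animal 1 (-2.84, 0.00496), without old Hom animal 3 (-2.14, 0.0493) and with array quality weights (-2.31, 0.00964). The young difference in B cells minus that in T cells called 0 of 7 (2 at an unadjusted p under 0.05, beside 1236 of all genes), where 0.139% of all genes were called, with Gcsam at -1.97 ± 0.59 (0.255) and S1pr2 at -1.64 ± 0.58 (0.392). Averaged over ages 0 of 7 were called against T cells, where 0.132% of all genes were, and 0 of 7 against non-BT cells, where 0.555% were, with 0 at an unadjusted p under 0.05 in both, beside 1064 and 1461 of all genes. For S1pr2 the per-library values behind this run in opposite directions, since the young Hom libraries held 1.10 to 8.36 FPKM in B cells and 12.1 to 17.0 FPKM in non-BT cells, against 1.80 to 20.9 and 9.23 to 12.3 FPKM in the young WT libraries.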

How the data were processed

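Total RNA of 42 spleen cell samples had been made into libraries with a full-length SMART-Seq HT kit and Nextera XT, without strand or molecular identifiers, per the labels' protocols. The authors aligned reads with HISAT2 2.1.0 to GRCm38.p4 and estimated FPKM with Cufflinks 2.2.1, with Cuffdiff also named, per the submitters' processing notes. The deposited FPKM values were used as they stand, without counts, as log2(FPKM + 1), so differences of low genes are understated. Of 47719 identifiers 47305 matched GENCODE M21, which gave symbols, and 21276 were at 0 in all libraries.

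Each cell type was fitted over its 14 libraries with limma 3.58.1 (R 4.3.3) with a mean-variance trend, for genes at 1 FPKM or more in 3 or more libraries, with p-values adjusted by Benjamini-Hochberg across every gene tested, a threshold of 0.05 and intervals of 95%. Fractions were compared in 1 fit of 42 libraries with the animal as a random block (correlation 0.0771), the animal being read from age, genotype and number in the titles. Where labels do not name separate animals, p-values measure only the spread between these samples. On simulated data for the young B cell comparison, 65% of 100 genes changed by 1 log2 unit and 90% of 100 changed by 2 were recovered among 12269 genes. The changed genes were drawn at random from all genes, each with its own spread, so these shares do not apply to the 7 genes. Some of the 7 spread widely, with an SE of 0.64 for Mef2b in that comparison. Same-numbered old Hom and WT B cell libraries deviated together, each correlating best with its own number (r of 0.19, 0.287 and 0.194). The same held in old T cells, with r of 0.095, 0.213 and 0.134. In young cells and in old non-BT cells it did not hold for every number. The replicate block changed no call in old B cells. The members, gene lists and marker lists were chosen with earlier results of these data known. The 7 members were named throughout, with at most 4 genes of smallest p from each list, all called list genes named or counted, and the 10 genes (3 for a single member) of highest correlation. Some genes that meet these rules are not reported here. Alternatives were a constant of 0.1 FPKM, a filter of 0.3 FPKM or none, quantile normalization, array weights, a replicate block, fits of the compared groups only, no animal block, each library series alone, leaving out the Psmb9-labelled libraries and each library in turn. Leaving out the animals numbered 2 (old) or 4 (young) was added after seeing the data.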

Additional observations from a re-analysis of the deposited data

Results flagged for a closer look

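Of 42 groups of 4 libraries checked (7 genes in 6 young groups), 6 held a library whose gap to the nearest other was past Dixon's 95% critical value, and chance flags about 1 in 20 groups. In young Hom B cells, animal 4 stood above the other 3 libraries with 8.36 FPKM for S1pr2, 22.2 FPKM for Mef2b and 2.11 FPKM for Basp1. In young Hom T cells, animal 3 stood above the others with 37.9 FPKM for Fas. In young WT T cells, animal 3 stood below the others with 3.95 FPKM for Gcsam. In young Hom non-BT cells, animal 2 had 0.0515 FPKM for Mef2b, which was listed at 0 in the other 3.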

How the results depend on the processing

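Of 630 recomputed counts of called germinal centre genes, over 25 comparisons, 619 stayed within 1.5 times the reported count. Outside the comparisons of whole fractions every reported count was 0, so there this means that 0 stayed 0. Some alternatives also left the libraries compared unchanged. Of 4100 recomputed values of single genes 0 called values turned in sign. Values not called did turn, such as Mef2b between old Hom and WT B cells under 3 of 26 alternatives. In young B cells 0 of 7 genes were called under each of 26 alternatives. The count became 1 for old against young Hom T cells with the replicate block (Mef2b, limma, adjusted p = 0.0296) and for young non-BT cells with 0.1 FPKM as the constant (Mef2b, 0.0284). It became 1, again Mef2b, for old against young Hom non-BT cells with 0.1 FPKM as the constant (0.00502), with array weights (0.02) and with the replicate block (0.0159), and was 0 to 1 when a library was left out in turn, with 1 without old WT animal 2 (0.0365) and without old Hom animal 3 (0.00242). For the young genotype difference in B minus non-BT cells it became 1 (S1pr2) with array weights (0.00964), and was 0 to 1 when an animal was left out in turn. The replicate block lowered the adjusted p in young B cells to 0.0933 for Gcsam, 0.138 for Mef2b and 0.151 for S1pr2 (limma), with no call. In young B cells, however, the same-numbered libraries of animals 1, 2 and 3 did not correlate best with each other. Without the young animals numbered 4, S1pr2 and Gcsam were called lower in B than in T cells (-0.52 and -0.48, adjusted p of 0.0412 and 0.0451). The cause of these shifts was not tested. The spread within groups of 3 or 4 libraries was wide, and the FPKM files give no counts, so levels under about 1 FPKM rest on few fragments.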
